A study of Homo sapiens with 6 samples.

Results

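Caspases are cysteine proteases that cut their substrates after aspartate, and the apoptosome is the cytosolic complex that switches on the first of them after mitochondria are permeabilised. The genes described here were CYCS, APAF1, CASP9, CASP2, CASP8, CASP10, CASP6 and CASP4, chosen by gene name as the rows of the deposited expression table that carry these symbols. All 8 were found, 1 row each, among the 32679 genes of the table. They cover the released cofactor, the scaffold, the initiator proteases, 1 executioner and 1 inflammatory caspase.

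As background, cytochrome c (CYCS) carries electrons in the respiratory chain and, once it leaves the mitochondrion, binds APAF1. APAF1 then assembles into a wheel that recruits and activates caspase-9, which in turn cleaves the executioner caspases. Caspase-8 and caspase-10 are activated at death receptors, caspase-2 at a platform built from PIDD1 and CRADD, and caspase-4 by bacterial lipopolysaccharide in the cytosol, where it cleaves gasdermin D and starts pyroptosis. All caspases are made as inactive precursors, so an mRNA level gives the supply of precursor and not the protease activity.

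The data were short-read RNA-seq of HEY cells, a human ovarian cancer line, in which PQBP1, a polyglutamine-binding protein that acts in pre-mRNA splicing, was knocked down. There were 3 control samples (shNC), for which the study names a control vector, and 3 with a hairpin against PQBP1 (shPQBP1). They were described by the submitters as biological replicates and all labelled day 3. The shPQBP1 cells received doxycycline at 1 µg/ml to induce the hairpin, whereas the labels give no treatment for shNC, so that the hairpin and the drug cannot be told apart in these groups. Per the study's methods the constructs were delivered by lentivirus into stable lines selected with puromycin, with a single sequence described for PQBP1.

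The values were FPKM, fragments scaled by transcript length and by the mapped fragments of the library, 1 value per gene and sample. Isoforms of a gene could not be told apart in them, and sequencing depth was unknown. Summed FPKM ran from 278285.8 to 318484.3 per sample, and 26.5% to 29.8% of genes were listed at 0. PQBP1 was lower in every knockdown sample, at 1.68, 1.72 and 1.44 FPKM against 7.18, 6.67 and 6.93 FPKM in shNC, a log2 fold change of -2.04 (SE 0.10, limma with Benjamini-Hochberg adjustment, adjusted p = 0.00154). The cell identity check was mixed. VIM (1112 to 1343 FPKM), KRT18 (76.6 to 94.6 FPKM) and PAX8 (12.3 to 24.1 FPKM) were present in all samples. The epithelial marker EPCAM was low (0.79 to 1.13 FPKM). The epithelial marker CDH1 (at most 0.06 FPKM) and the ovarian tumour antigen MUC16 (at most 0.01 FPKM) were at or near 0. The leukocyte marker PTPRC was listed at 0 throughout, although CD68, which is not limited to leukocytes, ran from 9.12 to 21.2 FPKM. Of the endothelial markers, CDH5 ran from 2.11 to 3.64 FPKM, whereas PECAM1 (at most 0.25 FPKM) and VWF (at most 0.04 FPKM) were lower. The library shNC 1 stood apart. Its correlation with the other samples was 0.926 to 0.955, against 0.926 to 0.967 for shPQBP1 1. Its deviations from the gene means followed the GC content of the transcripts most closely, with a Spearman rho of 0.631 across 11385 genes. In shNC 2 and 3 rho was -0.167 and 0.052, and in shPQBP1 1, 2 and 3 it was -0.477, -0.107 and -0.398. The log2 fold changes between the groups also followed GC content, with a Spearman rho of -0.459. Each deviation is from the mean of all samples, so shNC 1 also enters the values of the others and the fold changes between the groups. Whether the dependence holds without shNC 1 was not tested. Results that rest on shNC 1 are given below with and without it.

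The coding sequence at the functional centre of each protein is shown first, because it is what places the genes in their families. For the caspases the capitals mark the 5 codons around the catalytic cysteine, whose codon is the middle one. For CYCS they mark the haem-attachment stretch, with its pair of cysteine codons and a histidine codon, and for APAF1 the nucleotide-binding loop that holds dATP or ATP. All were read 5′ to 3′ from the coding strand of the GENCODE 44 canonical transcripts on hg38.
CYCS: atgaagTGTTCCCAGTGCCACaccgtt
APAF1: catGGAATGGCAGGCTGTGGGAAGTCTgta
CASP9: ttcatcCAGGCCTGTGGTGGGgagcag
CASP2: ttcatcCAGGCCTGCCGTGGAgatgag
CASP8: tttattCAGGCTTGTCAGGGGgataac
CASP10: ttcatcCAGGCCTGCCAAGGTgaagag
CASP6: atcattCAGGCATGTCGGGGAaaccag
CASP4: attgtcCAGGCCTGCAGAGGTgcaaac

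Of the 15 capital bases, 9 were identical in all 6 caspases. The caspase stretches were found by a search for the same residues around the cysteine, with 1 position left free. The search itself thus fixed most of these identical bases, also in the comparison of pairs. Pairs of caspases shared from 9 bases, between CASP8 and CASP4, to 13 bases, between CASP10 and CASP4. CASP8 and CASP10, which both act at death receptors and lie next to each other on chromosome 2, shared 11. The CYCS stretch lies at chr7:25124057-25124083 on the minus strand in exon 2 of 3, and the APAF1 stretch at chr12:98649615-98649644 on the plus strand in exon 4 of 27. The CASP8 and CASP10 stretches each lie within 1 exon, at chr2:201285079-201285105 in exon 8 of 9 and at chr2:201209336-201209362 in exon 9 of 10, both on the plus strand. In the other caspases an exon junction falls inside the stretch shown. It falls after 22 bases in CASP9 (exons 6 and 7, minus strand, starting within chr1:15504611-15504632), CASP2 (exons 8 and 9, plus strand, chr7:143300273-143300294) and CASP4 (exons 5 and 6, minus strand, chr11:104949543-104949564), and after 9 bases in CASP6 (exons 5 and 6, minus strand, chr4:109694525-109694533).

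The 8 mRNAs spanned a wide range of abundance. Mean FPKM over the 6 samples was 64.5 for CYCS, 14.1 for CASP4, 8.40 for CASP8, 3.81 for CASP6, 3.80 for APAF1, 2.34 for CASP2, 0.765 for CASP9 and 0.697 for CASP10. CYCS stood at the 98.3rd percentile of the 30717 genes above 0 in any sample, and CASP9 and CASP10 at the 60.3rd and 59.5th. The ranges of CYCS, CASP4 and CASP8 were separate from each other and from all lower genes. From CASP6 downwards, each gene's range over the 6 samples overlapped that of the next. Within each group, of the neighbours in this order, CASP6 overlapped with APAF1 and CASP9 with CASP10, and in shPQBP1 the wide range of CASP2 also reached those of CASP6 and CASP10. In both neighbouring pairs the order of the means was the opposite in shPQBP1 of that in shNC. The 3 parts of the apoptosome were thus listed at levels far apart, with the cofactor highest, the scaffold lower and the protease lowest in every sample.

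**Figure D1:**
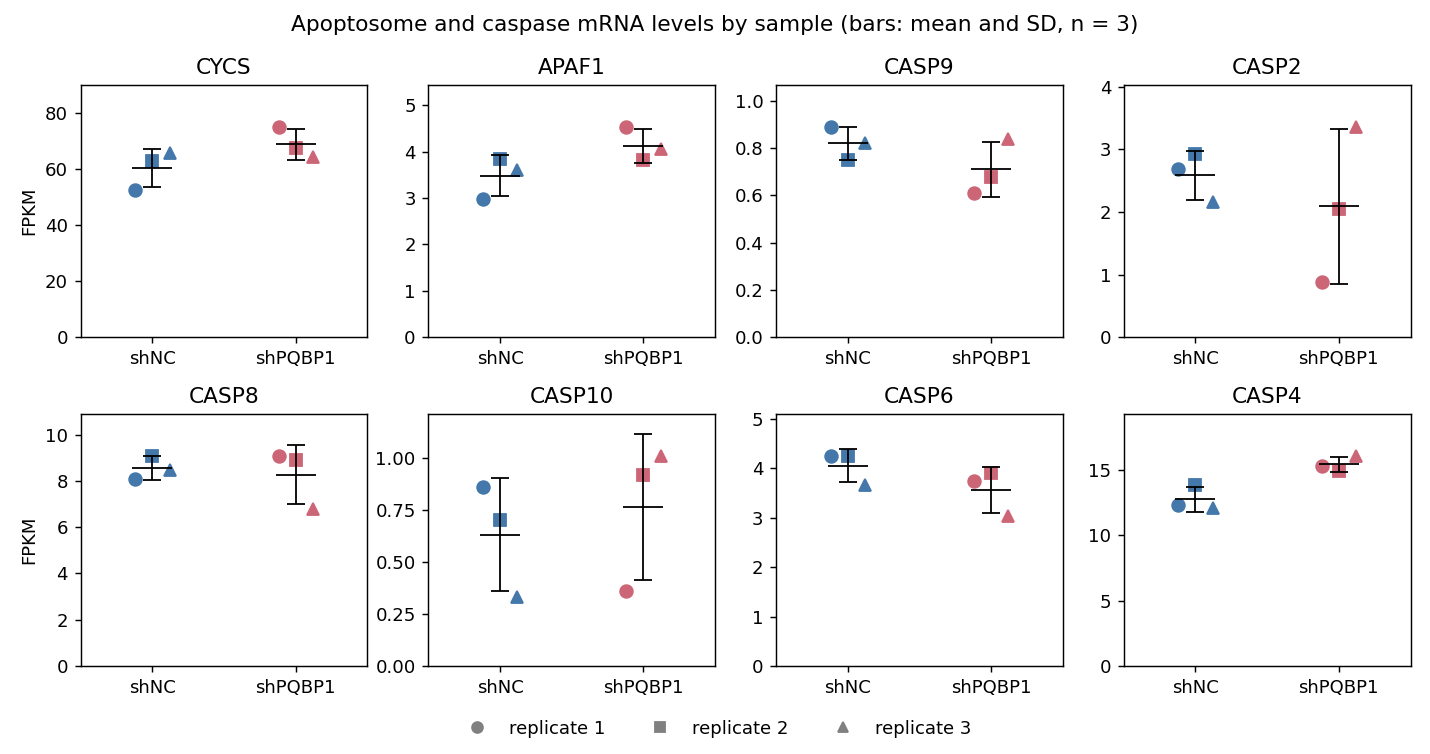
FPKM of the 8 genes in each sample, 1 panel per gene with its own vertical axis starting at 0, points for samples and bars for the mean and SD of 3 samples per group. The CASP4 points of shPQBP1 (14.93 to 16.06 FPKM) lie above those of shNC (12.04 to 13.84 FPKM), and in each of the other 7 panels the groups overlap.

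CYCS lies at chr7:25118656-25125260 on the minus strand. It measured 52.48, 62.79 and 65.47 FPKM in shNC 1, 2 and 3 and 74.89, 67.27 and 64.02 FPKM in shPQBP1 1, 2 and 3. The groups overlapped, with the lowest value in shNC 1 and the highest in shPQBP1 1. The means were 60.25 ± 6.86 and 68.73 ± 5.58 FPKM (SD, n = 3 each), and the log2 fold change was 0.19 (95% interval -0.08 to 0.46, limma with Benjamini-Hochberg adjustment over all genes tested, adjusted p = 0.322; two-sided exact permutation test, p = 0.2). Without shNC 1 the log2 fold change was 0.10, and with the dependence on GC content and transcript length removed it was 0.03. CYCS transcripts have a GC content of 41.2%, under the median of 47.5% for the genes tested. The table also holds 13 rows named as processed copies of CYCS, and together they amounted to 4.86%, 7.74% and 6.05% of the CYCS value in shNC and 10.6%, 9.56% and 11.2% in shPQBP1. The highest of these copies were CYCSP6, with 0.82, 1.83 and 1.86 FPKM in shNC and 3.93, 2.64 and 2.86 FPKM in shPQBP1, and CYCSP45, with 1.29 to 2.48 and 2.2 to 2.39 FPKM. Reads can be split between such copies and their parent gene, and how far this occurred was not tested.

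APAF1 lies at chr12:98645290-98735433 on the plus strand. Its values were 2.98, 3.84 and 3.61 FPKM in shNC and 4.53, 3.81 and 4.05 FPKM in shPQBP1. As with CYCS, shNC 1 was the lowest sample and shPQBP1 1 the highest, and the groups overlapped. The difference was 0.25 on the log2 scale (95% interval -0.06 to 0.56, limma, adjusted p = 0.286; exact permutation test, p = 0.2). It was 0.14 without shNC 1 and 0.09 with GC content and transcript length removed. APAF1 transcripts have a GC content of 41.8%.

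CASP9, the apoptosome's own protease, lies at chr1:15490832-15526534 on the minus strand. It measured 0.89, 0.75 and 0.82 FPKM in shNC and 0.61, 0.68 and 0.84 FPKM in shPQBP1. The groups overlapped through shPQBP1 3, the second highest of the 6 samples. With a mean of 0.765 FPKM, CASP9 was under the minimum of 1 FPKM set for the test, and the difference of -0.19 on the log2(FPKM + 0.1) scale had a 95% interval of -0.64 to 0.26 in the fit of every gene above 0 (limma, adjusted p = 0.643; exact permutation test, p = 0.3). It was -0.10 without shPQBP1 1 and -0.30 without shPQBP1 3.

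Ratios within a sample compare the parts of the complex directly. CYCS exceeded APAF1 17.6, 16.4 and 18.1 times in shNC and 16.5, 17.7 and 15.8 times in shPQBP1, and these values overlapped (difference of -0.05 in the log2 ratio, exact permutation test, p = 0.5). APAF1 exceeded CASP9 3.35, 5.12 and 4.40 times in shNC and 7.43, 5.60 and 4.82 times in shPQBP1. The highest control ratio lay above the lowest knockdown ratio, and the difference of 0.44 in the log2 ratio gave p = 0.2 in the exact permutation test. Leaving out 1 sample at a time moved it between 0.28 and 0.57. It was 0.28 without shNC 1, which had the lowest ratio, and 0.28 without shPQBP1 1, which had the highest. The GC content of the transcripts is 41.8% for APAF1 and 52.3% for CASP9. How far GC content enters this ratio was not tested, as CASP9 was under the minimum for the fit with GC content removed.

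**Figure D2:**
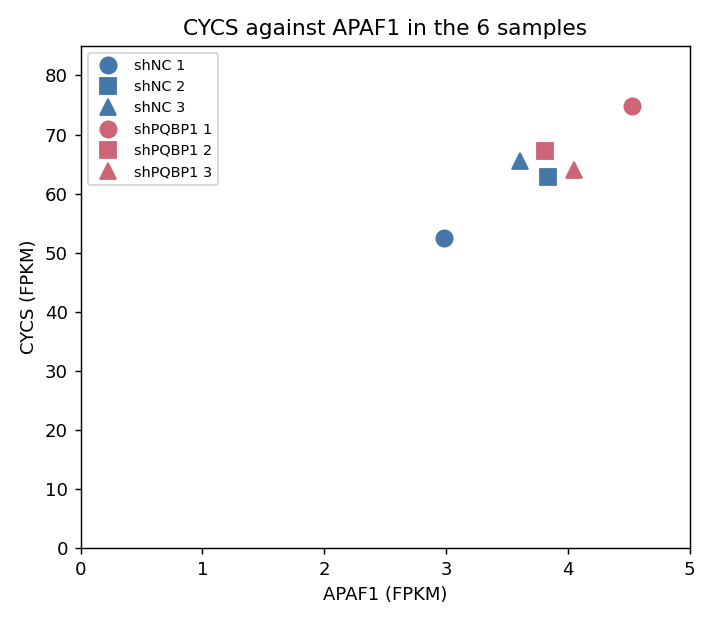
CYCS (vertical axis, FPKM) against APAF1 (horizontal axis, FPKM), 1 point per sample, coloured by group and shaped by replicate number, both axes starting at 0. The points shNC 1 (2.98 and 52.48 FPKM) and shPQBP1 1 (4.53 and 74.89 FPKM) lie at opposite ends, and the other 4 samples of both groups lie together between them.

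Among the initiators outside the apoptosome, CASP2, which lies at chr7:143288215-143307696 on the plus strand, had the widest spread in shPQBP1. Its values were 2.68, 2.92 and 2.16 FPKM in shNC and 0.88, 2.04 and 3.36 FPKM in shPQBP1. The knockdown samples thus held both the lowest and the highest of the 6 values, with a coefficient of variation of 59.3% against 15.0% in shNC. The log2 fold change was -0.46 (95% interval -1.54 to 0.62, limma, adjusted p = 0.537; exact permutation test, p = 0.6). Single samples decided it: without shPQBP1 1 it was 0.03, and without shPQBP1 3 it was -0.88.

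CASP8 lies at chr2:201233443-201361836 on the plus strand. It measured 8.07, 9.08 and 8.49 FPKM in shNC and 9.07, 8.92 and 6.79 FPKM in shPQBP1. The groups overlapped, and shPQBP1 3 was the lowest sample. The log2 fold change was -0.06 (95% interval -0.38 to 0.26, limma, adjusted p = 0.797; exact permutation test, p = 0.8), and without shPQBP1 3 it was 0.07.

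CASP10, at chr2:201182872-201229428 on the same strand as CASP8, had values of 0.86, 0.70 and 0.33 FPKM in shNC and 0.36, 0.92 and 1.01 FPKM in shPQBP1. Each group held 1 sample well below its other two, shNC 3 and shPQBP1 1. The mean of 0.697 FPKM was under the minimum for the test. The log2 difference was 0.22, with a 95% interval of -0.90 to 1.34 in the fit of every gene above 0 (limma, adjusted p = 0.825; exact permutation test, p = 0.5), and it ran from -0.12 without shNC 3 to 0.62 without shPQBP1 1. The ratio of CASP8 to CASP10 was 9.38, 13.0 and 25.7 in shNC and 25.2, 9.70 and 6.72 in shPQBP1, with the highest value of each group almost the same (difference of -0.28 in the log2 ratio, exact permutation test, p = 0.7).

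CASP6, an executioner caspase that cleaves lamin A, lies at chr4:109688622-109703583 on the minus strand. It measured 4.25, 4.25 and 3.66 FPKM in shNC and 3.74, 3.91 and 3.04 FPKM in shPQBP1. The knockdown values lay mostly lower, but shNC 3 was under both shPQBP1 1 and shPQBP1 2. The difference of -0.19 on the log2 scale was within the spread between samples (95% interval -0.50 to 0.13, limma, adjusted p = 0.395; exact permutation test, p = 0.3). Without shPQBP1 3 it was -0.079.

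CASP4, the inflammatory caspase, was the 1 gene of the 8 whose groups did not overlap. It lies at chr11:104942866-104969366 on the minus strand and measured 12.33, 13.84 and 12.04 FPKM in shNC and 15.32, 14.93 and 16.06 FPKM in shPQBP1. Every knockdown sample was above every control sample, and 17.3% of the 11413 genes tested were higher without overlap in the same way (34.4% without overlap in either direction, 17.1% lower). The means were 12.74 ± 0.966 and 15.44 ± 0.574 FPKM (SD, n = 3 each), a fold of 1.21 between the means. The log2 fold change of 0.28 (SE 0.09, 95% interval 0.07 to 0.48, the interval not adjusted for the number of genes) had an unadjusted p of 0.0164 in limma, passed by 11.9% of all genes in the same direction. It missed the adjusted threshold (Benjamini-Hochberg adjusted p = 0.132; exact permutation test, p = 0.1, the smallest that 3 against 3 samples allow). Over the alternatives the log2 fold change lay between 0.24 and 0.34 and the adjusted p between 0.106 and 0.343, and with GC content and transcript length removed the change was 0.29.

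The genes whose pattern over the 6 samples was most like that of CASP4 were MAU2 (Pearson r = 0.993), PIGB (0.991), PCLAF (0.990), EAPP (0.986) and IFT52 (0.986), as a description of 6 values that include the difference between the groups. MAU2, a subunit of the cohesin loader, had 2.17, 2.73 and 2.02 FPKM in shNC and 3.20, 2.97 and 3.32 FPKM in shPQBP1. PCLAF, a factor that binds the replication clamp PCNA, had 21.82, 22.95 and 21.02 FPKM and 24.06, 23.74 and 24.96 FPKM. In all, 324 genes had an r above 0.9 with CASP4.

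**Figure D3:**
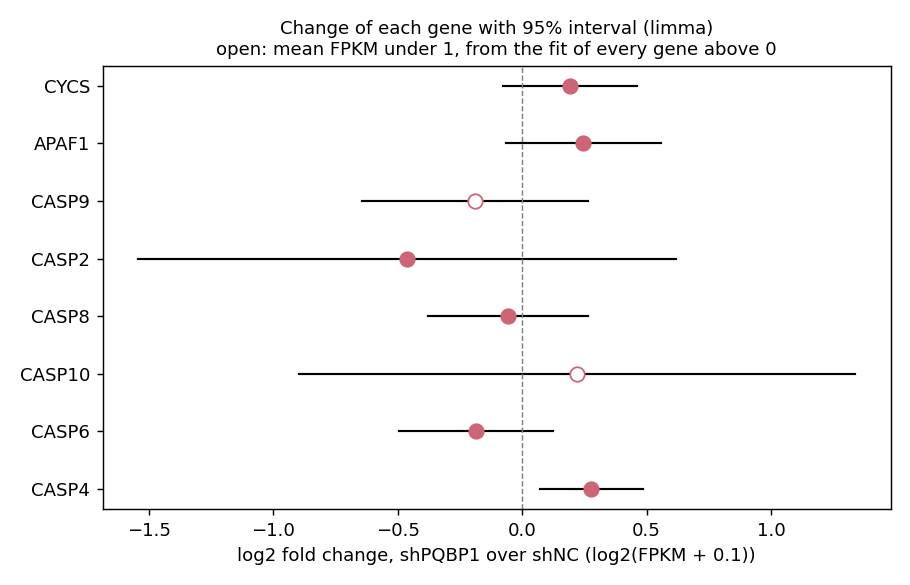
Log2 fold change of each gene (shPQBP1 over shNC, on log2(FPKM + 0.1)) with its 95% interval from limma, and open symbols for CASP9 and CASP10, whose values come from the fit of every gene above 0. The interval of CASP4 (0.07 to 0.48) is the 1 that does not cross 0, and those of CASP2 and CASP10 are the widest.

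Counted together, 0 of the 6 genes tested passed the adjusted threshold of 0.05 in limma, against 2.91% of all genes tested, 1.73% higher and 1.18% lower. Without adjustment 1 gene passed 0.05, CASP4, against 23.6% of all genes. None of the 6 changed by more than 2-fold with p under 0.05 before adjustment, as 1.52% of all genes did. The log2 fold change was positive in 3 and negative in 3, with a median of 0.07 beside 0.02 over all 11413 genes. None of the 6 passed the adjusted threshold under any of the alternatives either. The intervals nevertheless leave room for differences in most of them, and for CASP2 the 95% interval holds changes of over 1 log2 unit in the lower direction.

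**Figure D4:**
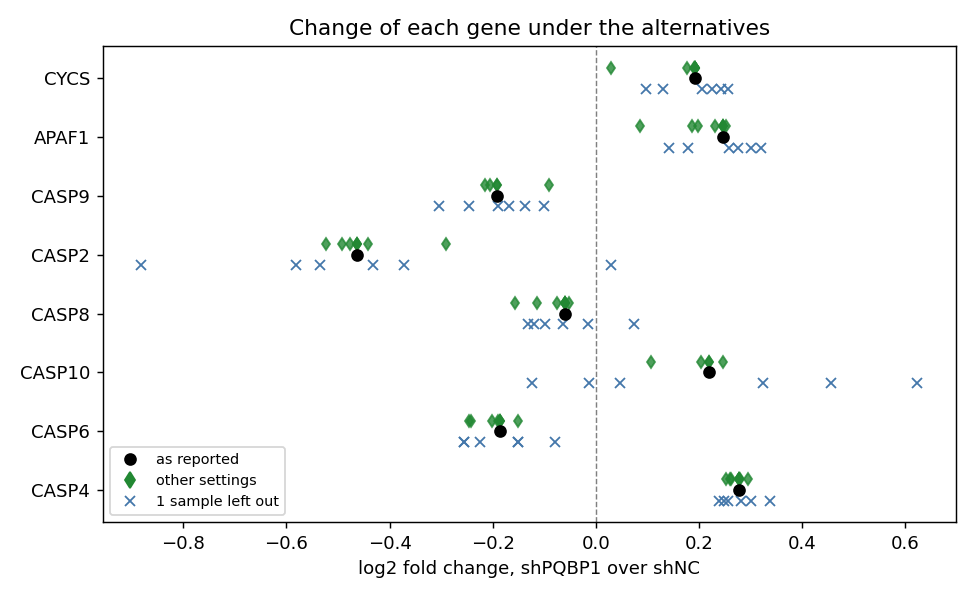
Log2 fold change of each gene as reported (black), under other settings (green diamonds) and with 1 sample left out at a time (blue crosses), with a dashed line at 0. CASP4 stays between 0.24 and 0.34, whereas CASP2, CASP8 and CASP10 have values on both sides of 0.

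The other genes of the pathway were taken from 9 lists with 68 symbols, of which 65 were found in the table and 56 reached a mean of 1 FPKM. CASP5, CASP14 and the older symbol DFNA5 were not analysed here. CASP12, PYCARD, NOD1, BCL2, BCL2L11, BIRC7, DFFB, GAS2 and TP73 were under the minimum. Of the 56 genes, 2 passed the adjusted threshold in limma as higher and 0 as lower, against 1.73% and 1.18% of all genes tested. These shares are also the background of the counts for single lists below. Before adjustment 7 passed as higher and 6 as lower. This last split depended on the scaling, with 7 higher and 10 lower after median-of-ratios scaling and 6 higher and 13 lower after quantile normalization. The background shares for an unadjusted p were 11.9% higher and 11.7% lower. The median log2 fold change of the 56 was 0.00.

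The caspase-2 platform list held 2 genes, both tested, and 1 of them rose. CRADD, the adaptor that joins caspase-2 to PIDD1, had 1.79, 1.57 and 1.74 FPKM in shNC and 3.15, 2.81 and 3.11 FPKM in shPQBP1. The groups lay far apart beside their spread, with means of 1.70 ± 0.115 and 3.02 ± 0.186 FPKM (SD, n = 3 each) and a log2 fold change of 0.80 (SE 0.11, limma, adjusted p = 0.0235). The call was lost whenever 1 sample other than shNC 1 was left out (adjusted p = 0.0703 to 0.12), while the log2 fold change stayed between 0.74 and 0.85. CASP2 itself, the protease of this platform, gave no call.

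In the inflammatory caspase pathway, which holds the partners and targets of caspase-1 and caspase-4, 9 of 11 genes found were tested, 1 rose and 0 fell, with a median log2 fold change of 0.22. The gene that rose was IL1B, the cytokine precursor that caspase-1 matures, at 27.79, 26.39 and 21.67 FPKM in shNC and 68.28, 82.80 and 81.38 FPKM in shPQBP1. Every knockdown value was more than double every control value, and the log2 fold change was 1.61 (SE 0.13, limma, adjusted p = 0.00493). The sensor NLRP3 had 4.32, 3.87 and 3.52 FPKM in shNC and 5.75, 5.85 and 5.42 FPKM in shPQBP1, without overlap, and missed the threshold (log2 fold change 0.53, adjusted p = 0.0537), although it passed without shNC 1 (adjusted p = 0.0312). Over the alternatives the adjusted p of NLRP3 in limma ran from 0.0121, with GC content and transcript length removed, to 0.227. GBP2, a guanylate-binding protein induced by interferon, had 1.15, 1.43 and 1.25 FPKM against 0.87, 0.82 and 0.89 FPKM (log2 fold change -0.52, adjusted p = 0.123).

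The mitochondrial gate list, the BCL2 family members that control the release of cytochrome c, had 7 of 9 genes tested, with 0 calls and a median of -0.16. The pore former BAX had 64.41, 50.80 and 52.76 FPKM in shNC and 41.50, 43.86 and 42.57 FPKM in shPQBP1 (log2 fold change -0.38, limma, adjusted p = 0.107). The antiapoptotic MCL1 had 116.21, 123.65 and 127.04 FPKM against 139.22, 143.07 and 143.66 FPKM (0.22, adjusted p = 0.123), and the BH3-only BBC3 had 3.59, 3.49 and 3.73 FPKM against 2.85, 3.24 and 2.51 FPKM (-0.33, adjusted p = 0.167). In each of these 3 genes, named for their small p, the groups did not overlap, as in 34.4% of all genes tested. With GC content and transcript length removed, the log2 fold change of BAX was -0.18 and that of BBC3 -0.098, and without shNC 1 that of BAX was -0.28.

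At the death receptors and the caspase-8 platform all 8 genes were tested with 0 calls and a median of 0.15. TNFRSF10B, a receptor for TRAIL, had 71.09, 63.84 and 66.58 FPKM in shNC and 52.40, 57.42 and 53.05 FPKM in shPQBP1 (log2 fold change -0.31, limma, adjusted p = 0.0894). Among the inhibitors and modulators of the apoptosome and caspases, 10 of 11 genes were tested with 0 calls and a median of 0.15, and BIRC5, which encodes survivin, had 11.44, 9.60 and 9.74 FPKM against 8.05, 9.18 and 8.52 FPKM (-0.25, adjusted p = 0.209). Without shNC 1 the log2 fold change of BIRC5 was -0.17, and its unadjusted p in limma rose from 0.0479 to 0.0775. The log2 fold change of TNFRSF10B without shNC 1 was -0.26. The 3 remaining lists gave 0 calls, and none of their genes had an unadjusted p under 0.05. These were cytochrome c maturation and other released proteins (6 of 6 tested, median -0.14), caspase substrates (8 of 10, median -0.07) and transcription factors of APAF1 and caspases (3 of 4, median -0.07).

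**Figure D5:**
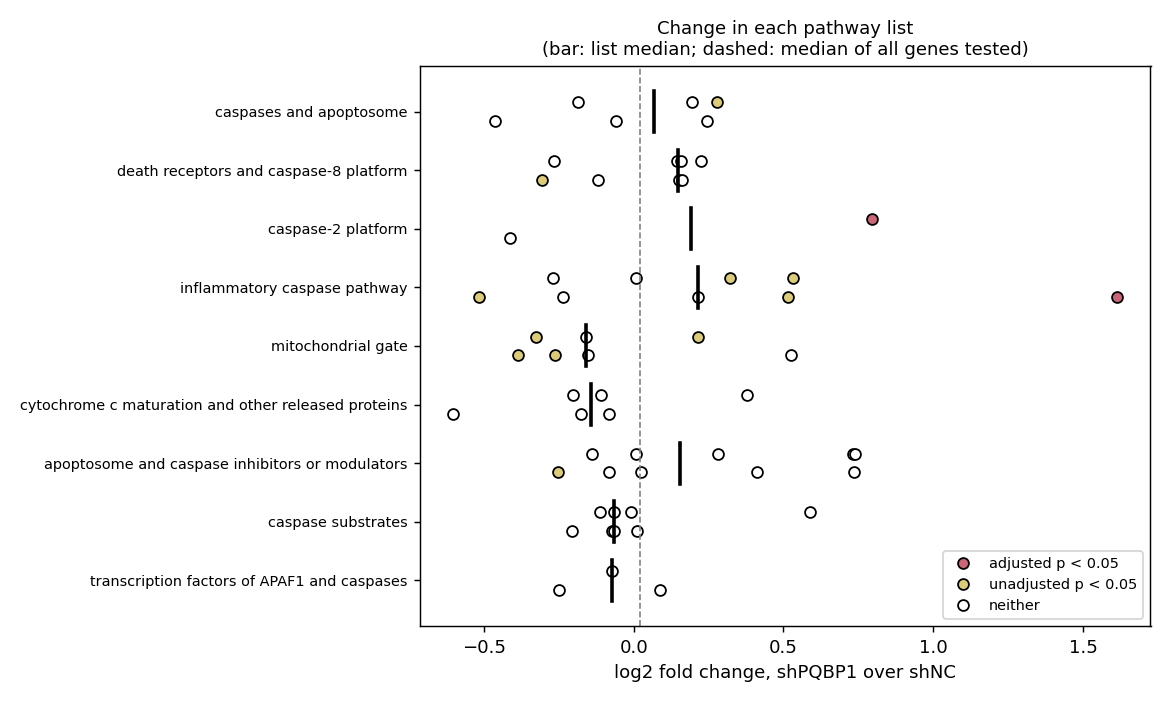
Log2 fold change (shPQBP1 over shNC) of the tested genes, 1 row for the caspases and apoptosome and 1 for each of 8 pathway lists, filled by whether it passed the adjusted (red) or the unadjusted (yellow) threshold of 0.05, with a bar at the list median and a dashed line at the median of all genes. The 2 red points are IL1B at 1.61 and CRADD at 0.80, and the top row spans -0.46 to 0.28.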

How the data were processed

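Total RNA of the 6 samples was taken with TRIzol, poly(A)-selected and sequenced as paired ends on an Illumina HiSeq instrument. The authors aligned the reads to hg38 with HISAT2 2.2.0, handled alignments with SAMtools 1.9 and quantified genes with StringTie 1.3.0, and per the file headers the deposited values are FPKM per gene and sample, rounded to 2 decimals. The table also holds columns of the authors' own comparison (fold change, p, q, regulation and significance by edgeR), which were not used. No counts could be recovered from the FPKM values, so depth is unknown and the test is on a log scale instead of edgeR.

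Genes with a mean of at least 1 FPKM over the 6 samples (11413) were tested on log2(FPKM + 0.1) with limma 3.58.1 in R 4.3.3 (lmFit, eBayes with trend, two-sided, Benjamini-Hochberg adjustment). Fold changes are on this scale, which understates those of low genes. Single values were also tested by exact permutation over samples in R, and the fit was tested on simulated data. The correlations of single samples with GC content used scipy 1.17.1 in Python 3.11.15. Alternatives changed the scaling, filter, pseudocount, trend and replicate block, left out each sample, or removed GC content and transcript length (natural splines of 5 degrees of freedom, GENCODE 44).

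The genes and pathway lists were chosen with earlier results of these data known. Named beyond the 8 genes were PQBP1, copies of the 8 with a mean of at least 1 FPKM, list genes at an adjusted p under 0.05, up to 3 per list of smallest p among those with an unadjusted p under 0.05, and the 5 genes most correlated with the gene of smallest p. Genes of 1 further list enter the counts over all lists but are not reported here.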

Additional observations from a re-analysis of the deposited data

How the results depend on the processing

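Of 86 values of the 6 tested genes under the alternatives, 84 kept their direction and side of the threshold. With 1 sample left out, the log2 fold change of CASP2 ran from -0.88 to 0.029, positive without shPQBP1 replicate 1, and that of CASP8 from -0.13 to 0.0745, positive without shPQBP1 replicate 3. Replicate numbers did not pair the samples: deviations of same-numbered samples correlated at -0.186, -0.138 and -0.0114. With the replicate block 0 genes were called higher and 0 lower, none of them in the pathway lists (0 higher), PQBP1 stayed at -2.04 with an adjusted p of 0.0686, IL1B had 0.103 and CRADD 0.18. Counts over all genes moved with the filter, which also set the number of genes tested. It was 11413 as reported, 30717 with every gene above 0 and 3661 with a mean of at least 10 FPKM. The counts under these filters are thus of different totals and cannot be compared as shares. At an adjusted p they were 197 higher and 135 lower, with every gene above 0 kept 127 and 63, and with a mean of at least 10 FPKM 114 higher. At an unadjusted p, 1353 and 1336 became 2150 and 2006 with every gene and 412 and 544 with the minimum of 10, and the block gave 872 lower. Quantile normalization gave 205 lower, and removing GC content and length gave 565 and 373. Leaving out 1 sample gave 17 to 294 higher and 13 to 170 lower at an adjusted p, fewest without shPQBP1 replicate 3 and most without shNC replicate 1, and 870 to 1629 and 866 to 1311 at an unadjusted p. Of the pathway genes, 1 was called higher with the minimum of 10 FPKM and 1 to 4 with 1 sample left out. With GC content removed 3 were higher (IL1B, CRADD and NLRP3) and 2 were lower (TNFRSF10B and GBP2). At an unadjusted p the pathway counts were 3 higher with the minimum of 10, 12 with GC content removed and 6 to 13 with 1 sample left out, and 10 lower after median-of-ratios scaling, 13 after quantile normalization, 3 with the block and 3 to 6 with 1 sample left out. Some settings use fewer or more genes, or fewer samples, and the cause of these shifts was not tested. Unknown depth limits CASP9 and CASP10 most, at under 1 FPKM.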

Other observations

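Sums over the initiator and the inflammatory caspases, formed after the values of single genes had been seen and given as values with no test, were as follows. The sum over the executioners is not reported here. The initiators CASP2, CASP8, CASP9 and CASP10 summed to 12.50, 13.45 and 11.80 FPKM in shNC and to 10.92, 12.56 and 12.00 FPKM in shPQBP1, and these sums overlapped. The inflammatory pair CASP1 and CASP4 summed to 14.02, 16.30 and 14.14 FPKM in shNC against 17.62, 17.66 and 18.92 FPKM in shPQBP1, without overlap. CASP4 made up 84.54% to 87.95% of this sum in the 6 samples, so the sum mostly repeats the values of CASP4 given above. Of all single genes tested, 17.3% were higher without overlap.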
